A study of Homo sapiens with 4 samples.

Results

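A set of 10 genes of iron storage, metal binding and antioxidant defence were followed in EJM myeloma cells in which an NF-κB inhibitor had been switched on: FTL, FTH1, MT2A, MT1X, SOD2, TXN, HMOX1, TFRC, PRDX1 and GCLM. The set was chosen by the log ratios of these same arrays, with earlier results known, so its values are given as a description. Members were found by gene symbol in the array annotation, and those with a value on at least 3 of the 4 arrays were described. Of the 10 genes, 6 had at least 1 named probe and 5 met the minimum of 3 arrays: FTL with 10 probes, TXN, HMOX1 and TFRC with 2 probes each, and MT2A with 1 probe. These 5 genes and 17 probes stood among 4212 named genes and 7713 features (named genes and single unnamed probes) that met the same minimum. SOD2, the mitochondrial superoxide dismutase, had a single probe (28770_1) with a value on day 4 alone, a log2 ratio of 0.39, and did not meet the minimum. FTH1, MT1X, PRDX1 and GCLM are not analysed here.

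EJM is an established line of multiple myeloma, a cancer of antibody-secreting plasma cells, and per the labels it comes from bone marrow. All cells carried the IkappaBalpha super-repressor (IkB-SR), a form of the NF-κB inhibitor IκBα that resists breakdown, under the control of the tetracycline repressor. Doxycycline was given at 20 µg/ml and 37 °C for between 1 and 4 days, and uninduced cells of the same line were the control on every array. Each day was 1 array with the induced cells in Cy5 and the control in Cy3, and the labels name no array with the dyes exchanged. Doxycycline itself, a dye bias of a probe and the super-repressor therefore cannot be told apart in these ratios, and the labels do not say whether the line was a single clone or the control a single RNA preparation. All values below are log2 ratios of induced over uninduced cells, so 0 is no difference; the direction comes from the dyes in the labels, and base 2 was assumed. Where 4 values of a gene or probe are listed, they are the arrays of days 1, 2, 3 and 4 in that order.

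Ferritin is a hollow shell of heavy and light chains in which cells store iron, and the transferrin receptor brings iron in. Iron regulatory proteins bind hairpins called iron-responsive elements, which blocks translation of ferritin mRNA and protects the mRNA of the receptor, so that storage and uptake are tuned in opposite directions. Metallothioneins are small cysteine-rich proteins that hold zinc and copper and are switched on by the metal-sensing factor MTF-1. Thioredoxin reduces oxidised proteins, and heme oxygenase 1 opens the heme ring and frees its iron. SOD2 and FTH1 are known NF-κB targets, and HMOX1 and TXN are known targets of NRF2, the regulator of antioxidant genes.

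Regulatory letters are shown for the pair of genes with the largest mean ratios, FTL and MT2A, because they are the known points of iron or metal control of these genes. Sequences are from RefSeq (GRCh38.p14), which gave 1 promoter window for each of FTL, MT2A, TXN and TFRC. The first is a stretch of 22 bases of the FTL transcript at chr19:48965337-48965358 (plus strand), within 50 bases after the annotated start, with the loop letters CAGTG of the iron-responsive element in capitals. The second is the 250 bases before the MT2A start at chr16:56608334-56608583 (plus strand), with every match to the metal-responsive core in capitals.
FTL: cttgcttcaaCAGTGtttggac
MT2A: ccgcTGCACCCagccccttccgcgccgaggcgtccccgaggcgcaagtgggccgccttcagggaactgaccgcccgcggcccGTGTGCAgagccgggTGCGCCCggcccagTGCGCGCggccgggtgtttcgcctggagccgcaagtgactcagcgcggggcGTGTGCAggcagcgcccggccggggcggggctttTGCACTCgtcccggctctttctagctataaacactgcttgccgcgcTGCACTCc

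The letters CAGTG, searched on the sense strand only, occurred in 6.48% of 35116 windows of the 50 bases after a start. The metal-responsive core was searched as TGCGCNC and TGCACNC on both strands. MT2A held 7 matches that do not overlap, 2 of TGCGCNC and 5 of TGCACNC. At least 1 match was found in 24.8% of all windows of this length, and 7 or more in 11 of 35116. The antioxidant element, searched as TGACNNNGC on both strands, had 1 match before MT2A and 0 before FTL, TXN and TFRC, against 10.9% of all windows with at least 1. The κB site (searched by its consensus, both strands) had 0 matches in these 4 windows, against 9.96% of all windows. Bases farther upstream were not searched and HMOX1 had no window, so a count of 0 holds for these windows only.

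Values were present for 10321 to 13872 of 15246 probes per array, and the ratios were more widely spread over probes on the first pair of days (SD 0.517 and 0.569) than on the last pair (0.345 and 0.38). The arrays correlated over probes with Pearson's r from 0.0204 (days 1 and 4) to 0.566 (days 3 and 4). TNFAIP3, an NF-κB target, had a mean of -1.47 ± 0.28 (SD, 4 arrays), and NFKBIA, from which the transgene derives, -0.14 ± 0.07. Ratios do not give the level of a marker, so the labelled cell type could not be checked on levels. Of 10 plasma cell markers 8 had a mean above 0 (median 0.35), as did 6 of 8 T cell, 4 of 6 myeloid and 2 of 3 red cell markers, with medians of 0.15, 0.03 and 0.10. Over all features 43.9% had a mean above 0. Of the red cell markers, HBB passed the test at 0.85 ± 0.09 (limma adjusted p = 0.0381; 0.337% of all features were called), while HBA1 and HBG1 had means of -0.14 ± 0.42 and 0.10 ± 0.24. The part of these markers in the results below was not tested, and fewer cells of a type and less RNA per cell cannot be told apart in bulk RNA.

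FTL, the ferritin light chain, had the highest mean of the 5 genes. Averaged over its probes, its log2 ratio was 0.61, 0.87, 0.68 and 0.90. The mean over days was 0.76 ± 0.14 (SD, 4 arrays), which is 1.70-fold more in induced cells. No array was near 0, and the lowest and the highest day were 1.52-fold and 1.86-fold. Among named genes with a value on the array, FTL ranked 237 of 4153 from the top at day 1, 99 of 3935 at day 2, 64 of 4418 at day 3 and 35 of 4447 at day 4. A rank also depends on the spread of the array, which was narrower on days 3 and 4. From day 2 to day 3 the FTL ratio fell from 0.87 to 0.68 while its rank moved up. On the mean over days FTL ranked 18 of 4212.

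The probes of FTL lay on the same side of 0 throughout but differed in size. Of 40 possible values 37 were present, and all 37 lay above 0, from 0.166 to 1.54, while 47.6% of all 49123 probe values on the arrays did. At least 1.5-fold was reached by 26 of the 37 and at least 2-fold by 10, against 6.71% and 1.66% of all probe values. The probes share a target gene and the same RNA, so they are repeated readings of 4 samples and not independent support. Only 27 of 4604 named genes had as many as 10 probes.

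The highest means came from 4 probes that were also higher on days 3 and 4 than on days 1 and 2. Probe 26896_1 read 0.907, 1.07, 1.11 and 1.50. Probe 26895_1 read 0.822, 0.647, 1.05 and 1.54. Probe 27956_1 read 0.669, 0.828, 1.38 and 1.31. These 3 probes and 16257_1, which went from 0.726 on day 1 to 1.41 on day 4, had means between 0.94 and 1.15. They were grouped after their values were seen.

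The other FTL probes had lower means over the days, and their order by day differed. Probe 34365_1 read 0.216, 0.621, 0.531 and 0.84, and probe 23895_1 read 0.212, 0.601, 0.372 and 0.514. Probe 27843_1 went the other way, with 0.876, 1.32, 0.405 and 0.39. Probe 24722_1 was high on day 2 alone, with 0.248, 1.27, 0.166 and 0.65. Incomplete sets came from probe 24211_1, at 0.778, 0.73 and 0.596 (no day 3 value), and from probe 23921_1, at 0.202 and 0.232 (days 3 and 4).

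Of the 8 FTL probes with values on all 4 arrays, 7 were higher on day 4 than on day 1 and 1 (27843_1) was lower. Averaged over these 8 probes FTL was at 0.58, 0.89, 0.74 and 1.02. The SD over FTL probes was 0.295, 0.279, 0.439 and 0.495. For genes with at least 5 readings on an array the median SD was 0.379, 0.355, 0.276 and 0.288 on the same days (181, 157, 256 and 276 genes). The FTL readings were thus closer together than the median on days 1 and 2 and farther apart on days 3 and 4, when 87.9% and 85.1% of these genes had a smaller SD.

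**Figure D1:**
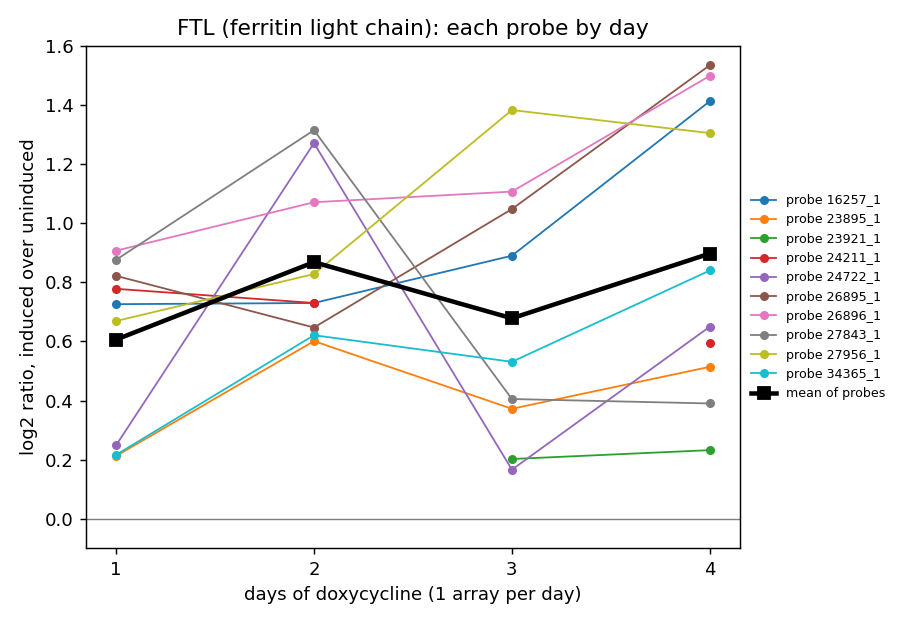
Log2 ratio of induced over uninduced cells (vertical axis) for each of the 10 FTL probes (coloured circles) and their mean (black squares) against days of doxycycline, with 1 array per day. All 37 readings lie above 0, and the readings are farther apart on days 3 and 4 than on days 1 and 2.

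TFRC, the transferrin receptor, was above 0 on the first days and near 0 at the end. The mean of its probes was 0.50, 0.43, 0.09 and -0.13. Its mean over days was 0.22 ± 0.29 (SD, 4 arrays), a mean smaller than the spread between days. Probe 19324_1 read 0.69, 0.651, 0.239 and 0.062, and probe 17881_1 read 0.305, 0.203, -0.06 and -0.32. Both probes were lower on each later day, with day 4 below day 1 by nearly the same amount, a difference of -0.628 for the first and -0.625 for the second. The gap between the probes stayed between 0.299 and 0.448.

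The slope on day was taken from a limma fit of all 6427 features with values on all 4 arrays. For TFRC it was -0.22 ± 0.08 log2 per day (SE; 95% interval from -0.43 to -0.02). It did not pass over all features (limma adjusted p = 0.319, unadjusted p = 0.0385). The background was 0% of features called on the slope, with the smallest limma adjusted p at 0.304, and 15% with an unadjusted p under 0.05. The members were chosen with these ratios known. The intervals and p-values of their slopes, here and below, therefore describe the values and are no evidence of a trend. Under the alternatives run for slopes (scaling, centring, choice of probes, array weights, left-out arrays and late against early days) the TFRC slope lay between -0.28 and -0.19.

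Iron storage and iron uptake genes were set side by side within each array. FTL minus TFRC was 0.11, 0.44, 0.59 and 1.03. The genes were therefore nearly level on day 1 and about 1 log2 unit apart on day 4. The FTL slope on its own was 0.07 ± 0.09 log2 per day (SE; limma adjusted p = 0.707), with an interval from -0.15 to 0.29, and it ran from 0.0146 to 0.222 over the same alternatives. TFRC was lower on day 4 than on day 1 by 0.627 averaged over its probes, and FTL was higher by 0.291. Their slopes were of like size only with arrays scaled to the same spread (FTL 0.20, TFRC -0.19) and with 1 probe per gene (0.22 and -0.21). Under every other alternative the FTL slope was the smaller in size. It came closest with probes that had values on all 4 arrays (FTL 0.12, TFRC -0.22). The difference between FTL and TFRC was described after its values were seen and has no test.

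MT2A, a metallothionein, was above 0 on all 4 arrays. Its single probe (27567_1) read 0.461, 0.764, 0.486 and 0.638. The mean was 0.59 ± 0.14 (SD, 4 arrays), which is 1.50-fold more in induced cells, and it ranked 60 of 4212 named genes. The days did not separate into early and late, and the slope was 0.03 ± 0.09 log2 per day (SE; limma adjusted p = 0.907). That slope was -0.06 without the day 1 array and 0.12 with arrays scaled to the same spread. Both MT2A and the FTL probe mean were higher on days 2 and 4 than on days 1 and 3. Single FTL probes did so for 23895_1, 24722_1 and 34365_1. Probes 16257_1, 26895_1, 26896_1 and 27956_1 read lower on day 2 than on day 3, and 27843_1 was lowest on day 4. The FTL probe mean exceeded MT2A on every array, by 0.104 to 0.259.

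Metallothionein transcripts are alike in sequence, and a spotted cDNA can bind several of them, so a single MT2A probe does not tell the family members apart. Other metallothionein probes nevertheless read differently. Averaged over its probes, MT1G had a mean of -0.13 ± 0.24 (SD, 4 arrays), with values of -0.313, 0.01, 0.135 and -0.337. Its day 1 value averages probes at -0.637 and 0.011, and the second of these had no value on later days. MT1H, named after its values were seen, read -0.67, 0.25, 0.24 and -0.15 averaged over its probes, a mean of -0.08 ± 0.43. A probe of MT1H had values on days 3 and 4 alone, at 0.491 and -0.205. The MT1H probes with values on all 4 arrays read -0.083 and 0.321 on day 3. Neither gene was above 0 on all 4 arrays. The 3 named genes whose ratios lay closest to MT2A over the 4 days, by root mean square difference among 3769 genes, were SSR4 (0.078), SPDYE1 (0.084) and COX15 (0.0998). For FTL, added after its values were seen, they were CD38 (0.124), CCL3 (0.138) and PTMA (0.138).

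TXN, thioredoxin, rested on probes that parted on day 4. Probe 29592_1 read 0.521, 0.267, 0.227 and 1.54, and probe 24413_1 read 0.407, 0.049, -0.187 and -0.154. The gap between them was 0.114, 0.218, 0.414 and 1.69. On day 4 the median gap of 1114 genes with 2 probes was 0.267, and 99.6% had a smaller gap than TXN. From day 1 to day 3 both probes were lower on each later day. The gene mean of 0.33 ± 0.30 (SD, 4 arrays) is therefore an average of a probe at 0.64 and a probe at 0.03, and without the day 4 array it was 0.21. The slope was 0.05 ± 0.13 log2 per day (SE; limma adjusted p = 0.843), and it was -0.22 without the day 4 array and 0.27 without the day 1 array.

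HMOX1, heme oxygenase 1, stayed close to 0 with probes that read almost alike. Probe 35957_1 read -0.298, -0.035, -0.105 and 0.211, and probe 37599_1 read -0.182, -0.04, -0.146 and 0.063. Both were below 0 on days 1 to 3 and above 0 on day 4. The gene mean was -0.07 ± 0.16 (SD, 4 arrays), and the probes were at most 0.148 apart. The slope was 0.10 ± 0.08 log2 per day (SE; limma adjusted p = 0.554), and 0.06 without the day 4 array.

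**Figure D2:**
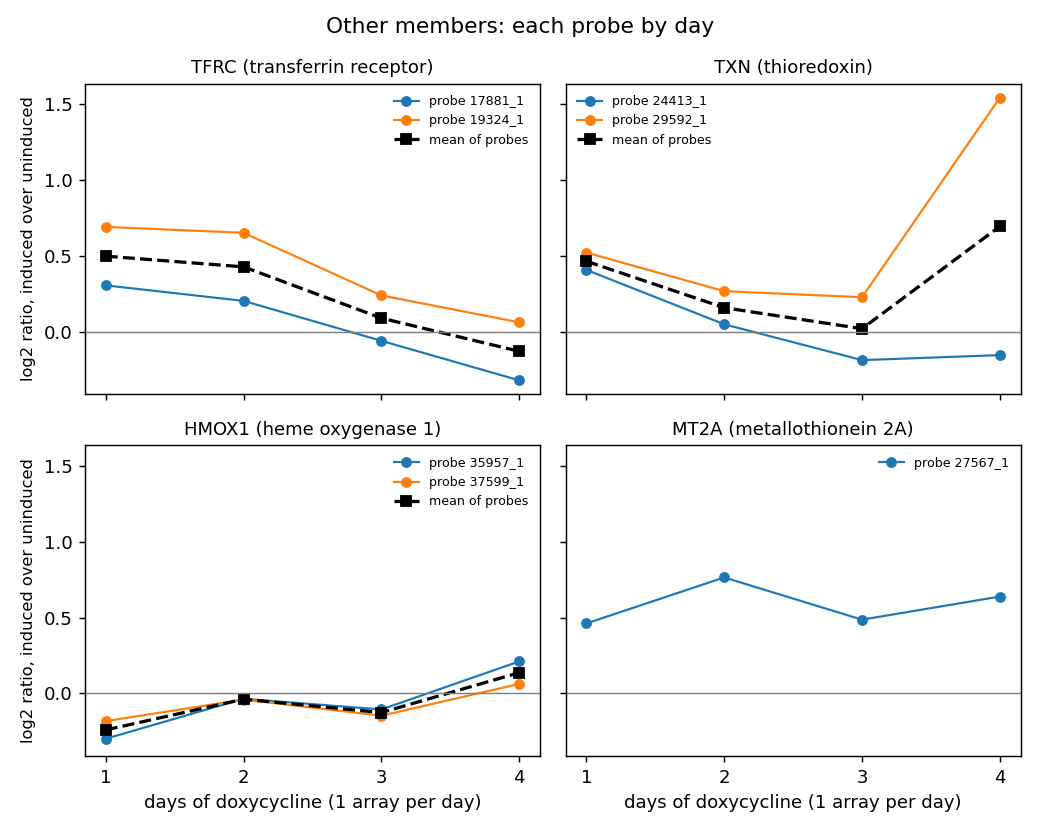
Log2 ratio of induced over uninduced cells (vertical axis) against days of doxycycline, with 1 array per day, for the probes (coloured circles) of TFRC, TXN, HMOX1 and MT2A and the mean of the probes (black squares) where there are 2. The TFRC probes run side by side from 0.69 and 0.305 down to 0.062 and -0.32, and the TXN probes part on day 4 at 1.54 and -0.154.

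By mean log2 ratio the order was FTL (0.76), MT2A (0.59), TXN (0.33), TFRC (0.22) and HMOX1 (-0.07). FTL lay above MT2A on 4 of 4 arrays, by 0.18 ± 0.07 (SD of the difference within arrays), when its probes were averaged. Single FTL probes did not all do so, since 4 of them (23895_1, 34365_1, 24722_1 and 23921_1) had means of 0.425, 0.552, 0.584 and 0.217, below that of MT2A, and on day 2 the median FTL probe (0.73) lay below MT2A (0.764). The other neighbours in the order did not differ beyond their spread. MT2A minus TXN was 0.25 ± 0.33, TXN minus TFRC 0.11 ± 0.48, and TFRC minus HMOX1 0.29 ± 0.43. FTL minus HMOX1 varied little between days, at 0.83 ± 0.06, with 0.846, 0.906, 0.804 and 0.76.

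Of the 5 genes, 4 had a mean above 0 and 3 (FTL, MT2A and TXN) were above 0 on all 4 arrays, against 43.9% of all features with a mean above 0 and 11.7% above 0 on all 4 arrays. The median of the 5 means was 0.33, and over all 7713 features it was -0.03. On single arrays, at least 1.5-fold higher was reached by FTL on all days, by MT2A on days 2 and 4, and by TXN on day 4. The share of all features at that level was 7.59%, 6.91%, 3.76% and 4.3% in the order of the days. No member was at least 1.5-fold lower on any day, where the background was 10.8%, 12.7%, 2.07% and 2.82%. In the limma fit of the mean over all features, at an adjusted p of 0.05, 0 of the 5 were called and 2 had an unadjusted p under 0.05. The background was 0.337% of features called, 0.156% higher and 0.182% lower, and 12.5% with an unadjusted p under 0.05. The members were chosen with these ratios known, so these counts describe them and nothing is read from them.

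**Figure D3:**
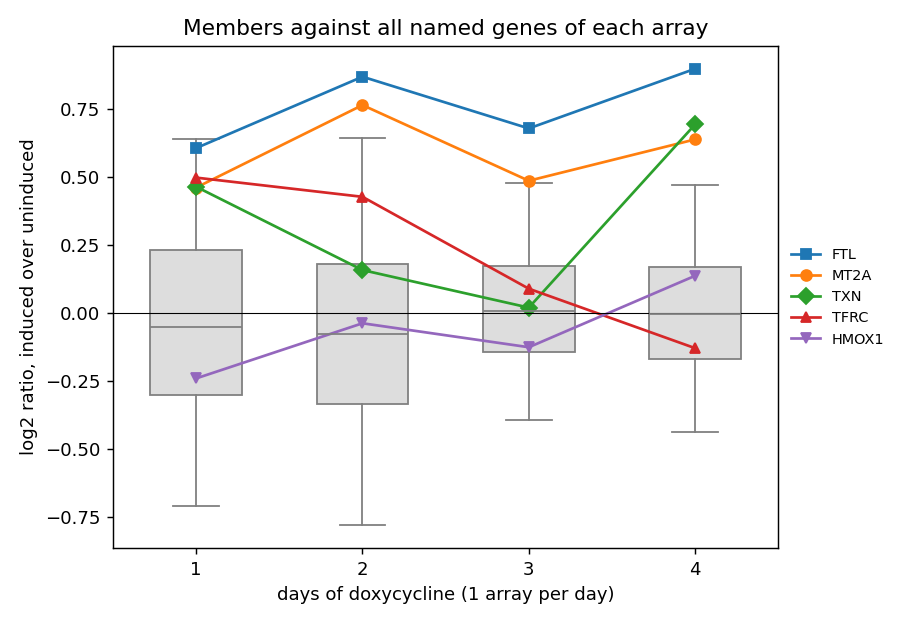
Log2 ratio of induced over uninduced cells (vertical axis) of the 5 genes (coloured lines) against days of doxycycline, over boxes of all named genes on each array (box: quartiles, line: median, whiskers: percentiles 5 and 95). FTL and MT2A lie above the upper whisker on days 2 to 4 and TXN on day 4, while TFRC and HMOX1 stay within the whiskers.

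Among the other genes of iron, metal and redox biology the list medians lay near 0. Only SOD3 (0.63 ± 0.71) and TXNIP (0.61 ± 0.44) had means above that of MT2A (0.59). Across 4 lists 61 further genes met the minimum of 3 arrays, and 0 passed over all features in the limma fit of the mean (background 0.337%), while 7 had an unadjusted p under 0.05, 6 higher and 1 lower (background 12.5%). In the iron and heme list 3 of 8 measured genes had means above 0, with a median of -0.05. The zinc and iron importer SLC39A14, on 1 probe, had a mean of -0.39 ± 0.51 (SD, 4 arrays) and values of 0.254, -0.294, -0.567 and -0.947. The heme-binding HPX, on 1 probe, had a mean of -0.35 ± 0.18 (3 arrays) and UROS, an enzyme of heme synthesis, 0.29 ± 0.21. With days 3 and 4 alone SLC39A14 was called lower at -0.76 (limma adjusted p = 0.0193), where 6.58% of all features were called.

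The list of metallothioneins and zinc genes, which also holds MTF1 and MTF2, had 3 of 7 means above 0 and a median of -0.01. MTF2 (0.06) was among those above 0, and MTF1 gave the median. The metallothioneins in it, MT1G and MT1H, had means below 0. The largest mean was that of the zinc carrier SLC39A7 on 1 probe, at 0.35 ± 0.74 (SD, 4 arrays) with 1.37 on day 1 and -0.367 on day 2. The zinc exporter SLC30A4 had a mean of -0.18 ± 0.12.

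Genes of glutathione and the NRF2 response had 17 of 31 means above 0 and a median of 0.01. GPX1, a glutathione peroxidase on 1 probe, read 0.965, 0.416, 0.41 and 0.378, a mean of 0.54 ± 0.28 (SD, 4 arrays; limma adjusted p = 0.22). GSR, which reduces oxidised glutathione, was below 0 on every array, at -0.177, -0.239, -0.604 and -0.451. Its 1 probe gave a mean of -0.37 ± 0.20 (limma adjusted p = 0.312). MGST2, a microsomal glutathione transferase, had a mean of 0.36 ± 0.19. With array weights, where 3.77% of features were called, GSR was called lower (-0.50, limma adjusted p = 0.0406). With days 3 and 4 alone, where 6.58% were called, GSR (-0.53, limma adjusted p = 0.037) and KEAP1, the inhibitor of NRF2 (-0.55, limma adjusted p = 0.0401), were called lower. Over all 4 arrays KEAP1, also on 1 probe, read 0.363, 0.063, -0.696 and -0.396. Its mean was -0.17 ± 0.47 (SD; limma adjusted p = 0.727), so KEAP1 was above 0 on days 1 and 2.

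The list of superoxide, peroxide and thiol genes, not all of which code for enzymes, had 5 of 15 means above 0 and a median of -0.05. TXNIP, which binds and restrains thioredoxin, had a mean of 0.61 ± 0.44 (SD, 4 arrays; limma adjusted p = 0.261). Averaged over the probes with a value on each day, TXNIP read 0.54, 0.32, 0.31 and 1.25. Not all of its 8 probes had a value on days 1 and 2, so these averages rest on different probes. On day 4 all 8 probes were above 0, from 0.234 to 2.36, and the probes with these lowest and highest values had none on day 1. Each TXNIP probe with values on all 4 arrays read highest on day 4. PRDX4, the peroxiredoxin of the endoplasmic reticulum, was lower on each later day, at 0.807, 0.637, 0.39 and 0.224. Its 1 probe gave a mean of 0.51 ± 0.26 (limma adjusted p = 0.227). The secreted dismutase SOD3, on 1 probe, had a mean of 0.63 ± 0.71, with 1.66 on day 2 and 0.01 on day 1. SOD1 and PRDX6, named after their values were seen, had means of -0.0037 ± 0.12 and 0.11 ± 0.15.

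**Figure D4:**
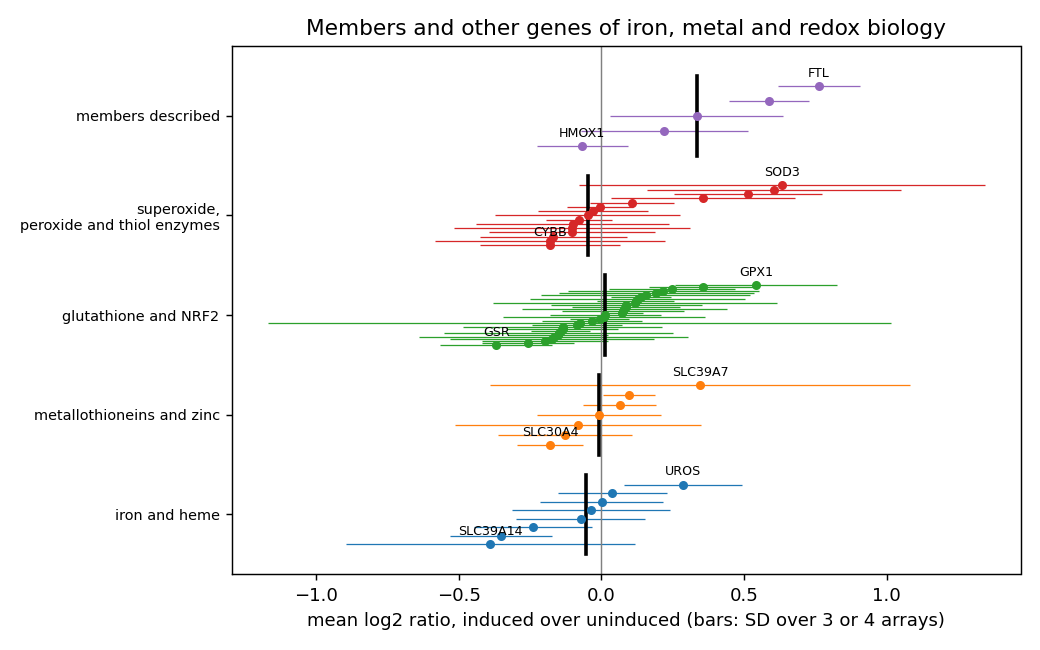
Mean log2 ratio of induced over uninduced cells (horizontal axis) for the 5 genes described and the 61 measured genes of 4 lists, with bars for the SD over 3 or 4 arrays and a black line at each median. The median of the 5 genes is 0.33 and the list medians lie between -0.05 and 0.01.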

How the data were processed

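RNA of EJM cells was read on 4 two-colour cDNA arrays, 1 per day, from 50 µg of total RNA per dye, per the labels. The values as deposited are channel log ratios, taken here as log2 of Cy5 over Cy3. The authors' background correction, normalization, spot filter and log base are not known from the labels or the table, and a largest value of 7.26 is too large for base 10. No spot intensities were used. Of 15246 probes 10169 had 1 symbol, 4 several and 5073 none. Symbols were updated through the Entrez identifier (10128 probes; RefSeq, GRCh38.p14), and probes of a gene were averaged per array. Means against 0 and slopes on day were fitted with limma 3.58.1 in R 4.3.3 (lmFit, eBayes, two-sided) on the whole table, with adjustment by Benjamini and Hochberg and a threshold of 0.05. The fits were tested on simulated data with independent arrays, no missing values and planted changes larger than those of the members. That test does not show how the fits perform at the sizes reported here. The 4 arrays are different days, separate cultures are not stated, and p-values measure only their spread. The number of arrays limits the precision. Members and lists were chosen with earlier results of these data known. Named genes were all members, every list gene past the threshold, the 3 largest means of each list, the 3 nearest patterns of FTH1, SOD2 and MT2A where measured on all 4 arrays, NFKBIA and TNFAIP3. Alternatives covered scaling, centring, the choice of probes, array weights, the minimum of arrays, the log base and left-out arrays.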

Additional observations from a re-analysis of the deposited data

How the results depend on the processing

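FTL, MT2A and TXN kept a mean above 0 under each alternative run for their means (array weights were run for the features and lists only). FTL moved from 0.76 to 0.94 with 1 probe per gene (the fewest missing values, then the lowest probe ID, which settled a tie of 8 probes with means from 0.425 to 1.15) and to 1.10 if the deposited values are natural logs, which would also put MT2A at 0.85. TXN was 0.029 by the same choice, where the tie was between probes at 0.029 and 0.64. TFRC went from 0.22 to 0.032 by that choice, where the tie was between probes at 0.032 and 0.41. Without an array in turn, FTL lay between 0.72 and 0.81, MT2A between 0.53 and 0.63, TXN between 0.21 and 0.44, TFRC between 0.13 and 0.34 and HMOX1 between -0.13 and -0.01. TFRC was at -0.02 with days 3 and 4 alone and 0.46 with days 1 and 2 alone, and HMOX1 at 0.01 and -0.14. The features called on the mean numbered 26, and 3 to 5 without an array, 3 with arrays scaled to the same spread, 1 with days 1 and 2 alone, 42 with values on all 4 arrays required, 291 with array weights and 569 with days 3 and 4 alone; the cause was not tested. Of the list genes 1 of 61 was called with array weights, where 3.77% of all features were called. With days 3 and 4 alone 3 of 62 were called, where 6.58% of all features were called. No feature was called on the slope under any alternative. No paired analysis was possible because each day has 1 array and the labels give no replicate numbers. No spot intensities were used, so dim spots could not be left out.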
